A study of Homo sapiens with 54 samples.

Results

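The genes described here are the PARP family and PARG: PARP1, PARP2, PARP3, PARP4, PARP9, PARP10, PARP12, PARP14, PARG and TNKS2. They were found by their symbols, and all 10 are among the 27470 genes of the table. RNA levels were read by 3′ end sequencing (QuantSeq) in 54 libraries from 2 lines of triple negative breast cancer, SUM1315 with mutant BRCA1 and MDA-MB-468 with wild type BRCA1. Each line had 9 conditions of 3 libraries, 18 conditions in all. Parental SUM1315 cells were untreated, or were given 8 µM olaparib (an inhibitor of PARP1 and PARP2), 2 or 4 µM CDDP (cisplatin), or olaparib and either CDDP dose. Parental MDA-MB-468 cells had the same 6 conditions with 3 µM olaparib and 1 or 2.5 µM CDDP. OlaR cells were derived from each line by growth in rising olaparib doses, were kept in 25 µM (SUM1315) or 15 µM (MDA-MB-468) olaparib, and were left so or given either CDDP dose of their line. Olaparib of parental cells and CDDP were given overnight, while OlaR cells stayed in olaparib without a break. The dose unit is that of the library titles (treatment notes print mM), and where titles of MDA-MB-468 libraries give 2.5 µM CDDP the series text gives 2 µM.

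Several limits come from the design. Each OlaR line is 1 derived culture that stayed in olaparib, and no OlaR library without the drug was used, so resistance and the drug's presence at a higher dose cannot be told apart. By the methods, libraries were multiplexed in batches of 27, the number that each line has, without a word on which shared one. Line and batch thus cannot be told apart, and levels of the lines are given side by side with no test. It is also not stated whether OlaR and parental libraries of a line shared a batch. If they did not, resistance and batch cannot be told apart either. Nothing states that the 3 libraries of a condition came from separate cultures, so p-values measure the spread between these libraries alone. Over genes with at least 20 reads in a pair of libraries of a condition, the chi-square of reads per degree of freedom (near 1 for counting error alone) ran from 1.60 to 22.1, with a median of 3.23 over 54 pairs. In SUM1315 untreated replicate 3 stood apart from replicates 1 and 2 (15.2 and 20.1, against 3.59 between them). So did replicate 3 with olaparib (8.72 and 8.73, against 2.90) and replicate 2 of OlaR + 2 µM CDDP (6.61 and 6.99, against 2.425). With 2 µM CDDP in parental cells the pairs gave 7.28, 9.93 and 22.1. Smaller gaps were seen in other conditions of both lines. In MDA-MB-468 replicate 3 with olaparib gave 4.755 and 5.88, against 3.19. Replicate 1 of olaparib + 1 µM CDDP gave 4.97 and 5.03 there, against 2.89. All libraries were kept. Leaving out that untreated library moved calls of PARP1 and PARP3 with olaparib, PARP3 with 4 µM CDDP, PARP2, PARP4 and PARP12 in OlaR against untreated cells, and TNKS2 between the lines. These are bulk samples, in which fewer cells of a kind and less RNA per cell cannot be told apart. A library held 4977284 to 7540920 reads in parental SUM1315 (median 6173974), 3446613 to 4665505 in OlaR SUM1315 (median 3900438), 5574767 to 9268162 in parental MDA-MB-468 (median 7331369) and 2070301 to 4676284 in OlaR MDA-MB-468 (median 4455837). Values are adjusted reads, the reads of a gene scaled by the authors to 1 library size of 5585170. Changes are log2 fold changes from limma with their standard error (SE), and a change passed the test at a Benjamini-Hochberg adjusted p of at most 0.05 over all genes tested, 13133 in SUM1315 and 13012 in MDA-MB-468. All 10 members were among them in both lines. The words rose, fell, higher and lower below refer to changes that passed, and a value after ± is the SD of 3 libraries.

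PARP enzymes take NAD and attach its ADP-ribose to proteins and nucleic acids, some as long chains (poly-ADP-ribose) and most as single units. Breaks in DNA activate the nuclear chain-forming members, whose chains recruit repair factors before hydrolases such as PARG remove them, and PARP inhibitors, which hold these enzymes on DNA, are used against breast cancers with BRCA mutations. Several of the single-unit members are known as interferon-stimulated genes that act in antiviral responses.

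The lines were checked against marker genes. MDA-MB-468 libraries held the epithelial markers EPCAM (2631 to 3793 adjusted reads, median 3026), CDH1 (median 806) and KRT19 (median 13474), with CDH2 at a median of 0 and VIM at a median of 25.2. SUM1315 libraries had medians of 0 for EPCAM, CDH1 and KRT19, while VIM had a median of 11453, FN1 of 1664 and ZEB1 of 352. Other epithelial markers had reads in SUM1315: KRT18 (median 320.0), KRT8 (median 75.6), KRT14 (median 12.3) and KRT5 (median 2.47). In MDA-MB-468 the medians of KRT18 (681), KRT8 (637) and KRT5 (498) lay above these values, and that of KRT14 (8.55) lay below. EGFR had a median of 2332 in MDA-MB-468 and 760 in SUM1315. Among receptors low in triple negative cancers, PGR had a median of 0 in both lines, ESR1 ran from 24.9 to 221 in MDA-MB-468, and ERBB2 had reads in all libraries, with medians of 37.9 in SUM1315 and 24.2 in MDA-MB-468. The leukocyte genes PTPRC, CD3E and LYZ, the endothelial gene VWF and the fibroblast gene COL1A2 had medians of 0 in both lines, while CD14 (medians 66.4 in SUM1315 and 21.0 in MDA-MB-468), PECAM1 (156 and 8.15) and COL1A1 (479 and 47.9) had reads in both.

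With olaparib in parental SUM1315 cells, 1 of the 10 members rose, where 18.9% of all genes tested rose, and 1 fell, where 17.1% fell. In MDA-MB-468 cells, 2 members rose and 2 fell with olaparib, beside 12.4% and 9.11% of genes. Against olaparib-treated parental cells, 1 member was higher and 3 were lower in OlaR SUM1315 cells, where 21.6% and 25.7% of genes were, and 2 were higher and 3 lower in OlaR MDA-MB-468 cells, where the shares were 23.6% and 27.9%. Against untreated parental cells, 3 members were higher and 5 lower in OlaR SUM1315 cells, beside 26% and 28.7% of genes, and 2 were higher and 5 lower in OlaR MDA-MB-468 cells, beside 26% and 27.5%. The OlaR cells are compared with both parental groups, and these comparisons share libraries. The median log2 fold change of the members in OlaR against untreated SUM1315 cells was -0.58, with -0.03 over all genes, and in MDA-MB-468 it was -0.15, with -0.02.

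**Figure D1:**
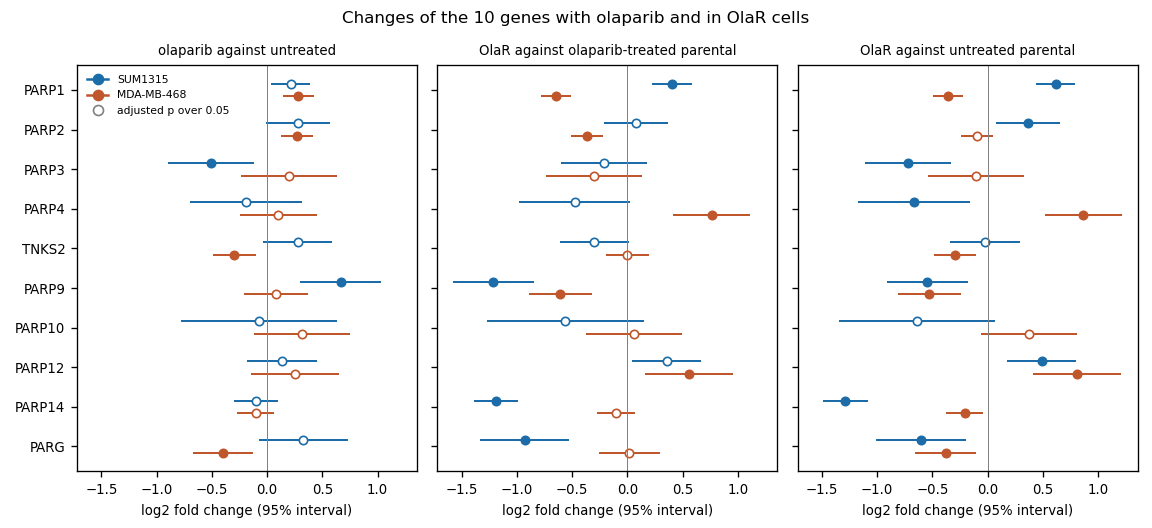
Log2 fold change (horizontal axis) of the 10 genes, with 95% confidence intervals, in the olaparib and OlaR comparisons of SUM1315 and MDA-MB-468. Filled points passed the test. PARP1 was higher in OlaR SUM1315 cells and lower in OlaR MDA-MB-468 cells, and PARP14 was -1.29 in OlaR against untreated SUM1315 cells.

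PARP1 makes most of the poly-ADP-ribose that follows DNA damage, and is a direct target of olaparib. In SUM1315 it had 1082, 1037 and 1356 adjusted reads in the untreated libraries, 1394, 1329 and 1277 in the olaparib libraries and 1781, 1829 and 1680.0 in the OlaR libraries. All 3 OlaR libraries lay above these 6 parental ones, and 1 untreated library lay among the olaparib values. PARP1 was higher in OlaR than in olaparib-treated cells by 0.40 (SE 0.09, adjusted p = 0.000304) and than in untreated cells by 0.61 (SE 0.09, adjusted p = 4.21e-07). Its olaparib change of 0.21 (adjusted p = 0.0568) did not pass, and passed without untreated replicate 3 at 0.33 (adjusted p = 0.00250). In MDA-MB-468 the values were 1089, 1051 and 1063 in untreated, 1322, 1244 and 1338 in olaparib and 823, 864 and 808 in OlaR libraries. These 3 groups did not overlap, with olaparib highest and OlaR lowest. There PARP1 rose with olaparib by 0.28 (SE 0.07, adjusted p = 0.00137) and was lower in OlaR cells, with -0.65 (SE 0.07, adjusted p = 1.54e-11) against olaparib-treated and -0.36 (SE 0.07, adjusted p = 1.22e-05) against untreated cells. The OlaR changes of the lines thus had opposite signs, and their difference (SUM1315 minus MDA-MB-468) was tested in all 54 libraries and 14460 genes: 1.05 (SE 0.11, adjusted p = 4.45e-11) against olaparib-treated and 0.98 (SE 0.11, adjusted p = 1.89e-10) against untreated cells. The olaparib changes of the lines were not shown to differ, at -0.07 (adjusted p = 0.698).

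PARP2 is activated by DNA breaks like PARP1, shares part of its work and is also inhibited by olaparib. In SUM1315 its values were 156, 145 and 141 in untreated, 201, 137 and 208 in olaparib and 193, 192 and 183 in OlaR libraries. The OlaR values all lay above the untreated ones, and the olaparib values spanned a range from below the untreated to above the OlaR libraries. It was higher in OlaR than in untreated cells by 0.36 (SE 0.14, adjusted p = 0.0303), a call that was lost without OlaR replicate 1 (0.0713), OlaR replicate 2 (0.0687), untreated replicate 2 (0.0654) or untreated replicate 3 (0.0779), or in a fit of only the groups compared (0.0502) (adjusted p in parentheses). The olaparib change of 0.28 (adjusted p = 0.122) passed when olaparib replicate 2, the low library, was left out, at 0.47 (0.0108). In MDA-MB-468 the untreated libraries had 566, 526 and 556, the olaparib libraries 647, 666 and 672 and the OlaR libraries 473, 537 and 532. All olaparib values were above both other groups, which overlapped. PARP2 rose with olaparib by 0.27 (SE 0.07, adjusted p = 0.00444) and was lower in OlaR than in olaparib-treated cells, at -0.37 (SE 0.07, adjusted p = 2.62e-05), while OlaR and untreated cells were not shown to differ (-0.10, adjusted p = 0.264). The OlaR changes differed between the lines by 0.45 (adjusted p = 0.0134) against olaparib-treated cells, which did not pass without SUM1315 olaparib replicate 2 (0.129), or in a fit of only the groups compared (0.0630), and by 0.46 (adjusted p = 0.00943) against untreated cells. Without that olaparib library the first was 0.26.

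PARP3 attaches single ADP-ribose units at DNA breaks. In SUM1315 it had 208, 189.6 and 301 in untreated, 154, 175 and 151 in olaparib and 136, 128 and 150.3 in OlaR libraries. The untreated libraries were the highest of the 3 groups, 1 of them far above the others. PARP3 fell with olaparib, with a log2 fold change of -0.51 (SE 0.19, adjusted p = 0.0350), but the call was lost without olaparib replicate 1 (0.0889), olaparib replicate 3 (0.0940) or untreated replicate 3 (0.259), or with no filter on low values (0.0505), and without untreated replicate 3 the value was -0.31. It was lower in OlaR than in untreated cells, at -0.72 (SE 0.19, adjusted p = 0.00180). In MDA-MB-468, whose PARP3 values ran from 37.0 to 114, none of the 3 comparisons passed, with log2 fold changes of 0.20, -0.30 and -0.10 and adjusted p of 0.582, 0.248 and 0.713. The lines were not shown to differ in these changes (adjusted p = 0.0804, 0.830 and 0.0774). The test against untreated cells passed without SUM1315 untreated replicate 2 (0.0412) or MDA-MB-468 untreated replicate 1 (0.0288), and that of olaparib without SUM1315 untreated replicate 2 (0.0426), MDA-MB-468 olaparib replicate 2 (0.0444) or MDA-MB-468 untreated replicate 1 (0.0352), or with DESeq2 (0.0442).

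PARG is the hydrolase that cuts poly-ADP-ribose chains, so it acts opposite to PARP1 and PARP2. In SUM1315 it had 86.2, 88.0 and 86.9 in untreated, 99.8, 102 and 129 in olaparib and 56.2, 55.8 and 58.8 in OlaR libraries. The 3 groups did not overlap, and OlaR was lowest and olaparib highest. PARG was lower in OlaR cells than in olaparib-treated cells (-0.93, SE 0.20, adjusted p = 0.000239) and untreated cells (-0.60, SE 0.20, adjusted p = 0.0106), and its olaparib change of 0.33 (adjusted p = 0.205) did not pass. In MDA-MB-468 its values were 186, 207 and 219 in untreated, 142, 156 and 165 in olaparib and 149.6, 181 and 140.1 in OlaR libraries. The untreated libraries lay above the other 6, which overlapped. PARG fell with olaparib by a log2 value of -0.40 (SE 0.14, adjusted p = 0.0290) and was lower in OlaR than in untreated cells, at -0.38 (SE 0.14, adjusted p = 0.0162). The olaparib call was lost without olaparib replicate 1 (0.123), olaparib replicate 2 (0.0597), untreated replicate 2 (0.0770) or untreated replicate 3 (0.121), and the OlaR call without OlaR replicate 1 (0.0534), OlaR replicate 3 (0.0927) or untreated replicate 3 (0.0740). Its changes differed between the lines with olaparib, by 0.73 (adjusted p = 0.0180), and in OlaR against olaparib-treated cells, by -0.95 (adjusted p = 0.000683). Without SUM1315 olaparib replicate 3 the first of these did not pass (0.0683). The OlaR changes against untreated cells were not shown to differ (-0.22, adjusted p = 0.442).

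**Figure D2:**
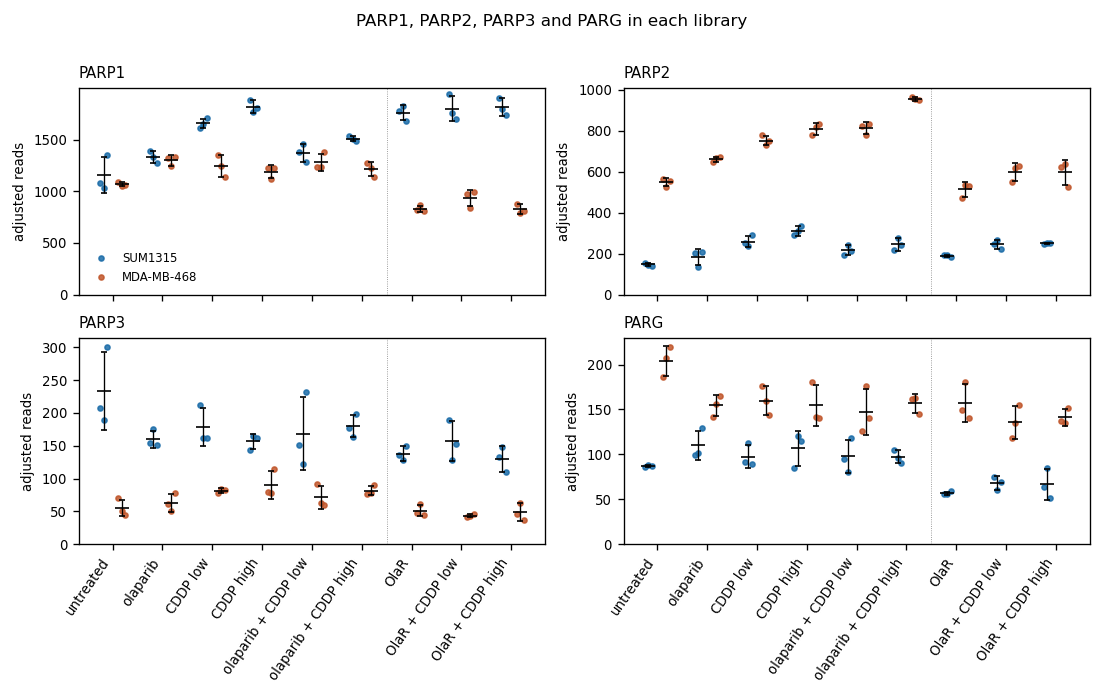
Adjusted reads (vertical axis) of PARP1, PARP2, PARP3 and PARG in each library of the 9 conditions per line, with mean and SD; low and high CDDP are 2 and 4 µM in SUM1315 and 1 and 2.5 µM in MDA-MB-468, and the dotted line sets OlaR cells apart. PARP1 means of OlaR conditions lie at 1763 to 1815 in SUM1315 and 829 to 936 in MDA-MB-468.

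Over all 9 conditions of a line, PARP1 condition means ran from 1158 ± 172 (untreated) to 1819 ± 62.5 (4 µM CDDP) in SUM1315, where the 3 OlaR conditions and 4 µM CDDP, at 1763 to 1819, had SDs that overlapped, and from 829 ± 46.4 (OlaR with 2.5 µM CDDP) to 1301 ± 50.1 (olaparib) in MDA-MB-468, where the 3 OlaR conditions were the lowest, at 829 to 936, and their SDs overlapped. PARP2 ran from 147 ± 7.68 (untreated) to 312 ± 23.4 (4 µM CDDP) in SUM1315, with SDs that overlap between neighbours from 182 to 259, and from 514 ± 35.8 (OlaR) to 956 ± 8.44 (olaparib with 2.5 µM CDDP) in MDA-MB-468, where olaparib with 2.5 µM CDDP stood apart from the next mean of 812 ± 29.2. PARP3 was highest in untreated SUM1315 cells and ran from 130.2 ± 19.5 (OlaR with 4 µM CDDP) to 233 ± 59.5 (untreated), while in MDA-MB-468 it ran from 43.6 ± 2.14 (OlaR with 1 µM CDDP) to 90.4 ± 20.9 (2.5 µM CDDP), with SDs that overlap between most neighbours in the order. For PARG the range was from 56.9 ± 1.63 (OlaR) to 110.2 ± 16.2 (olaparib) in SUM1315, with the 3 OlaR conditions lowest, and from 136 ± 18.4 (OlaR with 1 µM CDDP) to 204 ± 16.9 (untreated) in MDA-MB-468, where the 7 means between the extremes, 141 to 159.6, had SDs that overlapped.

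PARP4, a large member found in vault particles, had 73.2, 111 and 95.1 in untreated, 68.0, 79.2 and 95.9 in olaparib and 76.5, 46.0 and 53.6 in OlaR SUM1315 libraries. The groups overlapped. It was lower in OlaR than in untreated cells at -0.67 (SE 0.25, adjusted p = 0.0229), which did not hold without OlaR replicate 2 (0.121), OlaR replicate 3 (0.0663), untreated replicate 2 (0.107) or untreated replicate 3 (0.0548). Against olaparib-treated cells the change of -0.48 (adjusted p = 0.116) passed only without OlaR replicate 1 (0.0420), the OlaR library with the highest value. In MDA-MB-468 the values were 96.0, 72.7 and 73.2 in untreated, 82.9, 93.7 and 81.9 in olaparib and 149, 157 and 135 in OlaR libraries. There the OlaR libraries were above these 6 parental ones, and PARP4 was higher by 0.76 (SE 0.17, adjusted p = 0.000217) against olaparib-treated and by 0.87 (SE 0.17, adjusted p = 3.41e-05) against untreated cells. The difference between lines was -1.24 (SE 0.31, adjusted p = 0.00109) and -1.53 (SE 0.31, adjusted p = 5.93e-05) in the same order. Olaparib in parental cells gave no change that passed (adjusted p = 0.587 in SUM1315 and 0.746 in MDA-MB-468).

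TNKS2, tankyrase 2, forms poly-ADP-ribose chains on proteins of telomeres and of WNT signalling. Its SUM1315 libraries held 227, 248 and 181 untreated, 255, 229 and 313 with olaparib and 221, 276 and 159.8 as OlaR. These overlapped and no olaparib or OlaR comparison passed (adjusted p = 0.168, 0.114 and 0.916), although OlaR against olaparib-treated cells passed without OlaR replicate 2 at -0.48 (0.0153), against -0.30 with it. In MDA-MB-468 TNKS2 had 423, 446 and 489.8 in untreated, 404, 388 and 317 in olaparib and 342, 389 and 375 in OlaR libraries. The untreated libraries were above both other groups. TNKS2 fell with olaparib (-0.30, SE 0.10, adjusted p = 0.0195) and was lower in OlaR than in untreated cells (-0.30, SE 0.10, adjusted p = 0.00779). The olaparib call was lost without olaparib replicate 3 (0.205) or untreated replicate 3 (0.122), with a value of -0.19 without that olaparib library, and the OlaR call was lost without OlaR replicate 1 (0.0537) or untreated replicate 3 (0.0612). The olaparib changes of the lines differed by 0.57 (adjusted p = 0.0231), which was lost without SUM1315 olaparib replicate 3 (0.0987), SUM1315 untreated replicate 3 (0.112), MDA-MB-468 olaparib replicate 3 (0.0954) or MDA-MB-468 untreated replicate 3 (0.0670), or in a fit of only the groups compared (0.0795). The OlaR changes were not shown to differ between lines, at -0.30 (adjusted p = 0.200) and 0.27 (adjusted p = 0.231), but passed without SUM1315 OlaR replicate 2 at -0.48 (0.0302) and replicate 3 at 0.48 (0.0226), respectively.

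PARP9, PARP14, PARP12 and PARP10 are single-unit or inactive family members known from interferon responses. PARP9 works in a complex with the ubiquitin ligase DTX3L, PARP14 and PARP10 modify signalling proteins, and PARP12 resides at the Golgi and limits viruses. On chromosome 3 PARP9 (chr3:122527924-122564784, minus strand) overlaps DTX3L (chr3:122564338-122575203, plus strand) by 447 bases, and PARP9, DTX3L, PARP15 and PARP14 (chr3:122680839-122730840) lie within 202917 bases. PARP12 lies at chr7:140023749-140062951. Promoter windows of 250 bases before to 50 after a start were read for 8 of the 10 members (RefSeq, GRCh38.p14) and searched on both strands for GAAANNGAA, the core of the response element of interferon-stimulated genes. Of 35116 promoters of that length, 2847 (8.11%) hold it, as do 14 of the 22 interferon-stimulated genes with an entry. Among the members PARP14, PARP12 and 1 of the 2 PARP9 windows hold it, and PARP1, PARP2, PARP3, TNKS2, PARG and the other PARP9 window do not. The 3 windows are shown because they hold the match, and are written 5′ to 3′ on the strand of the gene with the match in capitals, which reads as the reverse complement where the motif lies on the other strand, and a match is a description of letters and not a bound site. They are chr3:122564251-122564550 (minus), chr3:122680589-122680888 (plus) and chr7:140062902-140063201 (minus). The PARP9 match also lies in the DTX3L window, which runs the other way.
PARP9: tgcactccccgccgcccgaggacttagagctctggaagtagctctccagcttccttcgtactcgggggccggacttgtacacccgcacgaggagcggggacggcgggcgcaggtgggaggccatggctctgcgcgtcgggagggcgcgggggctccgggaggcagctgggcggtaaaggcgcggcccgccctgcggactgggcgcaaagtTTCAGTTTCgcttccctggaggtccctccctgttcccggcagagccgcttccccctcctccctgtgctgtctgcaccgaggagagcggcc
PARP14: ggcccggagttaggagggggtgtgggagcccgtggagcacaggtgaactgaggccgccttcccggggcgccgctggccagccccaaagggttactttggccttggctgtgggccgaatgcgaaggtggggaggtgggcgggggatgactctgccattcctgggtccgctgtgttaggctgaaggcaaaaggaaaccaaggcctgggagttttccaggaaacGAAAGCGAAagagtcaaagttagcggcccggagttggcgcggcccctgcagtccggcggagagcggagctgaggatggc
PARP12: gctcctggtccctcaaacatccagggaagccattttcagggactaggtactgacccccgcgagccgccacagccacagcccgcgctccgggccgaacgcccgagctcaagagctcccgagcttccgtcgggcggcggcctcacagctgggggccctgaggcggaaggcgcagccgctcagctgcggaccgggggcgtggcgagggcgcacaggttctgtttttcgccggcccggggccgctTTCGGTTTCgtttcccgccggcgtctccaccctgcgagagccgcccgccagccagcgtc

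PARP9 had 117, 114 and 126 adjusted reads in untreated, 201, 184 and 183 in olaparib and 117, 65.7 and 69.3 in OlaR SUM1315 libraries. Every olaparib value was above every untreated and OlaR value, and 1 OlaR library was level with the untreated ones. PARP9 rose with olaparib by 0.67 (SE 0.18, adjusted p = 0.00420) and was lower in OlaR cells, at -1.21 (SE 0.18, adjusted p = 1.53e-06) against olaparib-treated and -0.55 (SE 0.18, adjusted p = 0.0113) against untreated cells. The last call was lost without OlaR replicate 2 (0.0914) or OlaR replicate 3 (0.0705), or in a fit of only the groups compared (0.0611). In MDA-MB-468 the values were 188, 205 and 184 untreated, 197, 218 and 195 with olaparib and 114, 142 and 145 as OlaR. OlaR libraries were below these 6 parental ones, which overlapped. PARP9 was lower there by log2 values of -0.61 (SE 0.14, adjusted p = 0.000306) and -0.53 (SE 0.14, adjusted p = 0.00152), and its olaparib change was 0.08 (adjusted p = 0.759). Between lines the olaparib changes were not shown to differ at 0.59 (adjusted p = 0.0724), although edgeR (0.0336), DESeq2 (0.0294) and a fit of only these groups (0.0253) called them, nor were those of OlaR against untreated cells (-0.02, adjusted p = 0.956). OlaR against olaparib-treated cells differed by -0.60 (adjusted p = 0.0350), a call lost without SUM1315 OlaR replicate 2 (0.135), SUM1315 OlaR replicate 3 (0.110), SUM1315 olaparib replicate 1 (0.0721), MDA-MB-468 OlaR replicate 2 (0.0742), MDA-MB-468 OlaR replicate 3 (0.0827), MDA-MB-468 olaparib replicate 1 (0.0620) or MDA-MB-468 olaparib replicate 3 (0.0657), or with no filter on low values (0.0517), in a fit of only the groups compared (0.0782) or with edgeR (0.0636).

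PARP14 had 883, 823 and 962 in untreated, 795, 815 and 875 in olaparib and 389, 349.7 and 349 in OlaR SUM1315 libraries. The OlaR values lay far below both parental groups, which overlapped, and no olaparib change passed (-0.10, adjusted p = 0.464). PARP14 was lower in OlaR cells at -1.19 (SE 0.10, adjusted p = 1.30e-11) against olaparib-treated and -1.29 (SE 0.10, adjusted p = 1.06e-12) against untreated cells, past a 2-fold change both times. In MDA-MB-468 its libraries held 705, 625 and 737 untreated, 645, 568 and 714 with olaparib and 642, 588 and 559.5 as OlaR. These overlapped throughout. The OlaR change against olaparib-treated cells was -0.10 (adjusted p = 0.317), and that against untreated cells passed at -0.21 (SE 0.08, adjusted p = 0.0343) but not without OlaR replicate 2 (0.0808), OlaR replicate 3 (0.15), untreated replicate 1 (0.0949) or untreated replicate 3 (0.169), or with no filter on low values (0.0747) or with DESeq2 (0.0705). The OlaR changes differed between lines by -1.09 (SE 0.13, adjusted p = 2.94e-09) and -1.08 (SE 0.13, adjusted p = 2.06e-09).

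PARP12 went the other way in OlaR cells of both lines. In SUM1315 it had 225, 162 and 129.5 in untreated, 188, 157 and 212 in olaparib and 227, 206 and 281 in OlaR libraries. The highest untreated library lay among the OlaR values. PARP12 was higher in OlaR than in untreated cells by 0.49 (SE 0.15, adjusted p = 0.00757), a call lost without OlaR replicate 3 (0.0702) or untreated replicate 3 (0.100), or in a fit of only the groups compared (0.0568), and without untreated replicate 3 the value was 0.31. Against olaparib-treated cells the change was 0.36 (adjusted p = 0.0568), and it passed without OlaR replicate 2 (0.0330) or olaparib replicate 3 (0.0294), or with edgeR (0.0490) or with DESeq2 (0.0346). In MDA-MB-468 the values were 54.7, 53.0 and 65.7 untreated, 70.5, 71.4 and 64.1 with olaparib and 98.1, 101 and 105 as OlaR. The OlaR values were above those of the 6 parental libraries, by 0.56 (SE 0.20, adjusted p = 0.0163) against olaparib-treated and 0.81 (SE 0.20, adjusted p = 0.000563) against untreated cells. The first was lost without olaparib replicate 3 (0.0542). No difference between lines passed (adjusted p = 0.805, 0.549 and 0.308).

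PARP10 had the fewest reads of the members in SUM1315, 4 to 68 per library, and 24 to 143 per MDA-MB-468 library. Its adjusted reads ran from 8.59 to 71.3 in SUM1315 and from 37.8 to 91.0 in MDA-MB-468. No olaparib or OlaR comparison passed within a line (adjusted p from 0.121 to 0.888), at this depth, and OlaR against untreated SUM1315 cells passed without OlaR replicate 1 at -0.96 (0.0317), against -0.64 with it. The OlaR changes against untreated cells differed between lines by -1.01 (adjusted p = 0.0381), but not without SUM1315 OlaR replicate 3 (0.279), SUM1315 untreated replicate 1 (0.104), MDA-MB-468 OlaR replicate 1 (0.0808), MDA-MB-468 OlaR replicate 3 (0.0605), MDA-MB-468 untreated replicate 1 (0.0630) or MDA-MB-468 untreated replicate 2 (0.0871), or in a fit of only the groups compared (0.118), with edgeR (0.110) or with DESeq2 (0.0790). Without SUM1315 OlaR replicate 3 the difference was -0.51.

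**Figure D3:**
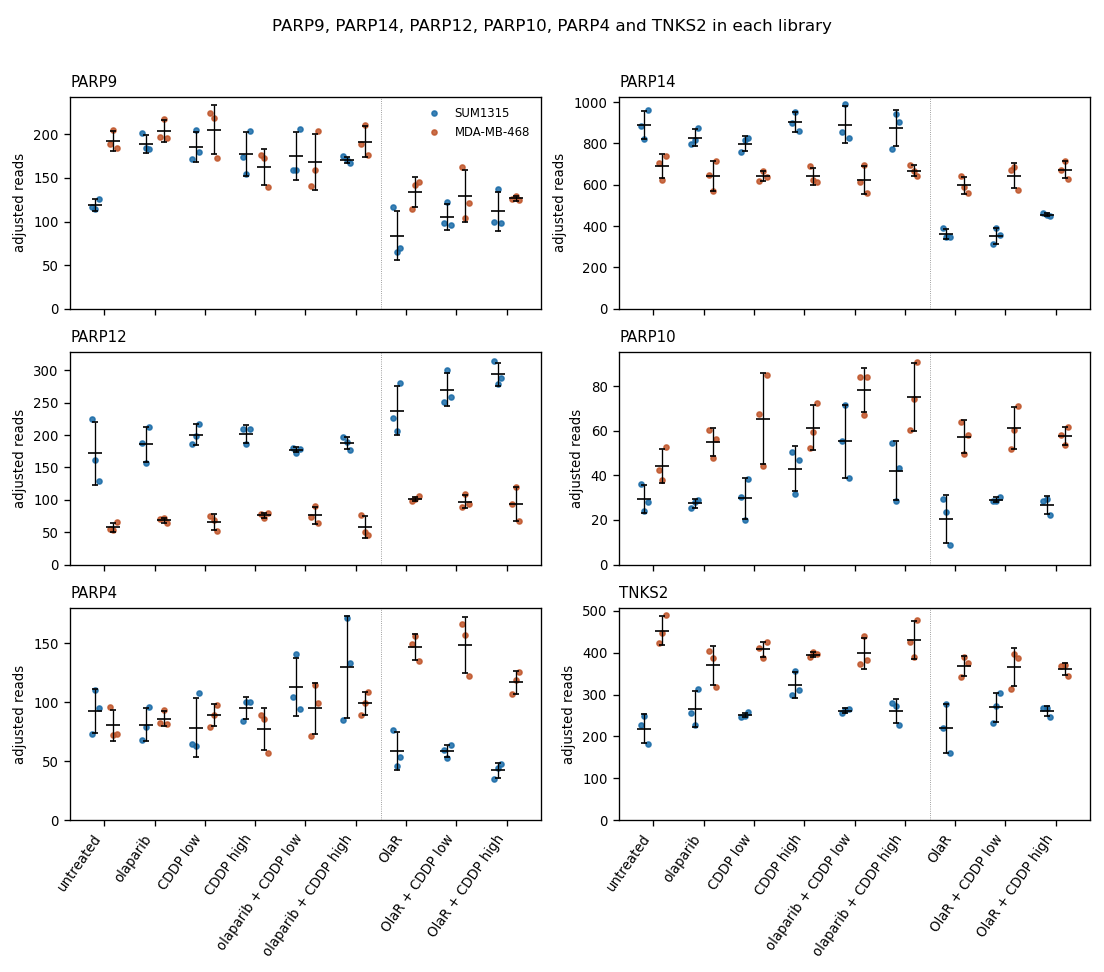
Adjusted reads (vertical axis) of PARP4, TNKS2, PARP9, PARP10, PARP12 and PARP14 in each library of the 9 conditions per line, with mean and SD; CDDP doses and the dotted line are as for PARP1. PARP14 means lie at 354 to 455 in the OlaR SUM1315 conditions and at 799.6 to 904 in the parental ones.

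Across all conditions PARP14 means ran from 354 ± 38.8 (OlaR with 2 µM CDDP) to 904 ± 46.5 (4 µM CDDP) in SUM1315, where the 3 OlaR conditions stood apart from the 6 parental ones, and from 597 ± 42.0 (OlaR) to 689 ± 57.8 (untreated) in MDA-MB-468, where all 9 lay within the SDs of their neighbours. PARP9 ran from 83.9 ± 28.5 (OlaR) to 189 ± 10.2 (olaparib) and from 127 ± 2.80 (OlaR with 2.5 µM CDDP) to 205 ± 28.6 (1 µM CDDP), with the OlaR and untreated conditions lowest in the first line and the OlaR conditions lowest in the second. PARP12 ran from 172 ± 48.4 (untreated) to 294 ± 18 (OlaR with 4 µM CDDP) and from 57.8 ± 6.93 (untreated) to 101 ± 3.63 (OlaR), and the OlaR conditions were the highest 3 in both. For PARP4 the means ran from 42.5 ± 6.36 (OlaR with 4 µM CDDP) to 130.0 ± 43.1 (olaparib with 4 µM CDDP) and from 77.1 ± 17.8 (2.5 µM CDDP) to 149 ± 23.6 (OlaR with 1 µM CDDP), with OlaR lowest in SUM1315 and highest in MDA-MB-468. TNKS2 ran from 219 ± 34.3 (untreated) to 322 ± 31.1 (4 µM CDDP) and from 361 ± 14.2 (OlaR with 2.5 µM CDDP) to 453 ± 34.2 (untreated), and PARP10 from 20.5 ± 10.7 (OlaR) to 55.2 ± 16.2 (olaparib with 2 µM CDDP) and from 44.2 ± 7.66 (untreated) to 78.3 ± 9.78 (olaparib with 1 µM CDDP), both with SDs that overlap between neighbours in the order.

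DTX3L, the partner of PARP9, had 782, 801 and 994 in untreated, 624, 623 and 565 in olaparib and 267, 314 and 196 in OlaR SUM1315 libraries. These groups did not overlap, and their order from high to low was untreated, olaparib and OlaR, while PARP9 was highest with olaparib. DTX3L fell with olaparib (-0.50, SE 0.14, adjusted p = 0.00389) and was lower in OlaR cells against olaparib-treated (-1.24, SE 0.14, adjusted p = 4.08e-09) and untreated cells (-1.74, SE 0.14, adjusted p = 1.15e-12). None of its 3 changes in MDA-MB-468 passed (adjusted p = 0.125, 0.734 and 0.151). The OlaR changes of the lines differed by -1.28 (adjusted p = 5.35e-09) against olaparib-treated and -1.61 (adjusted p = 8.25e-12) against untreated cells, and the olaparib changes were not shown to differ (-0.33, adjusted p = 0.142). PARP9 and DTX3L overlap on opposite strands and PARP9 lies within a non-coding gene for 32047 bases. A search by gene symbol, which left out some chromosomes, found 2 pseudogene copies of PARP1, 2 of PARP4 and 1 of PARG. Reads could have been shared out among such copies or discarded in counting, which was not tested.

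The list of interferon-stimulated genes holds 28 others, all tested in SUM1315 and 23 in MDA-MB-468. With olaparib in SUM1315, 13 rose and 2 fell (median log2 fold change 0.74), where 18.9% of all genes tested rose and 17.1% fell. In OlaR against olaparib-treated SUM1315 cells 22 were lower by limma (21 by edgeR and 22 by DESeq2) and 0 were higher by limma, edgeR, DESeq2 or at an unadjusted p under 0.05, where 25.7% of all genes were lower and 21.6% higher, with a median of -1.05 beside -0.05. Against untreated cells 5 were higher and 13 lower (10 by edgeR and by DESeq2), beside 26% and 28.7% of genes, with a median of -0.39. So the direction of PARP9 in the first 2 comparisons was that of most listed genes that passed, and PARP14 was in the lower group in both OlaR comparisons but did not rise with olaparib. PARP12, higher in OlaR than in untreated SUM1315 cells, went against most listed genes that passed there. In MDA-MB-468 the 6 that passed with olaparib all rose (1, IFIT2, fell by edgeR, by DESeq2 and at an unadjusted p under 0.05; median 0.08), beside 12.4% and 9.11% of genes. There 7 were higher and 4 lower in OlaR against olaparib-treated cells (median 0.12), beside 23.6% and 27.9% of genes, and 11 were higher and 4 lower against untreated cells (median 0.41), beside 26% and 27.5%. In both of these comparisons PARP9 was lower, against most listed genes that passed, and PARP12 was higher. Over the alternatives and with any 1 library left out, the 6 became 3 to 7, the 2 that fell with olaparib in SUM1315 0 to 2, the 22 that were lower 18 to 22 and the 13 that were lower 10 to 14.

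**Figure D4:**
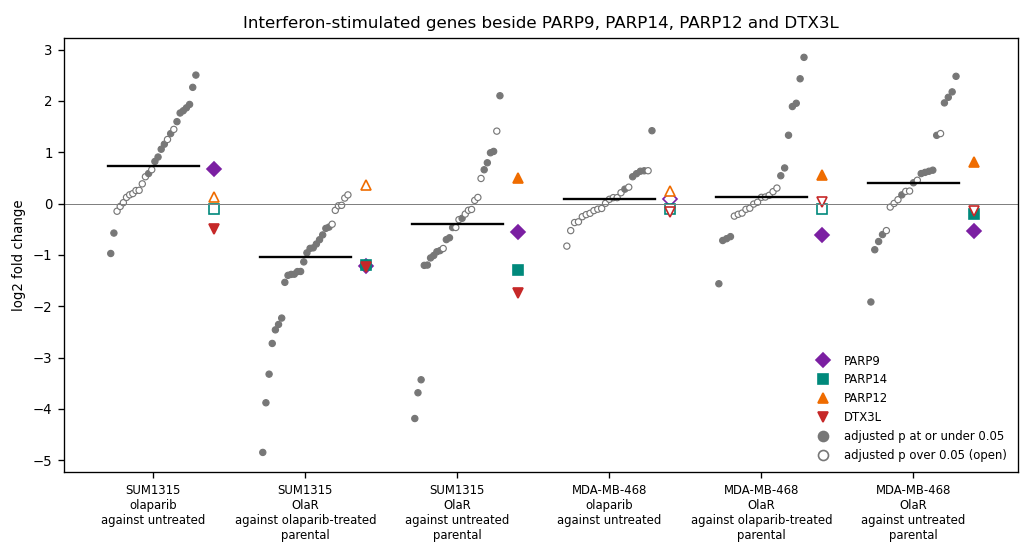
Log2 fold change (vertical axis) of each listed interferon-stimulated gene (grey), sorted, with the list's median (bar), beside PARP9, PARP14, PARP12 and DTX3L, in 6 comparisons; filled points passed the test. In OlaR against olaparib-treated SUM1315 cells the median is -1.05, near PARP9 (-1.21), PARP14 (-1.19) and DTX3L (-1.24).

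Among the listed genes with the smallest p-values, IFIT2 went from 56.2 ± 2.13 in untreated to 274 ± 8.38 in olaparib-treated and 26.5 ± 2.74 in OlaR SUM1315 cells, with log2 fold changes of 2.27 (adjusted p = 4.65e-13) for olaparib and -3.32 (adjusted p = 8.58e-18) for OlaR against olaparib-treated cells. In MDA-MB-468 the olaparib change of IFIT2 did not pass by limma (-0.83, adjusted p = 0.0748), and was a fall by edgeR (0.0488) and DESeq2 (0.0426). IFIT3 had the same order in SUM1315, with 1.81 and -2.73 (adjusted p = 1.70e-11 and 2.45e-16). SAMD9 was higher in OlaR than in olaparib-treated MDA-MB-468 cells by 2.43 (adjusted p = 7.42e-14), its smallest adjusted p. In SUM1315 it rose with olaparib by 1.93 (adjusted p = 5.73e-10) and stayed higher in OlaR than in untreated cells by 0.80 (adjusted p = 0.000487). The next 2 genes are given for the comparison with their smallest adjusted p, whichever parental group that was. DDX58 was lower in OlaR SUM1315 cells at -1.33 (adjusted p = 1.95e-13) and IFI44L at -3.88 (adjusted p = 7.19e-12), the latter from 93.9 ± 18.5 to 5.88 ± 3.09. ISG15, in contrast, was higher in OlaR than in untreated cells of both lines, by 1.02 (adjusted p = 5.56e-08) and 1.96 (adjusted p = 3.13e-13).

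Of the 8 other PARP family members in the table, 7 were tested in SUM1315 and 5 in MDA-MB-468. In SUM1315, 3 rose and 2 fell with olaparib, 2 were lower in OlaR than in olaparib-treated cells, and 1 was higher and 3 lower than in untreated cells. In MDA-MB-468 the 1 that passed with olaparib fell, and the 1 that passed in each OlaR comparison by limma was higher, while edgeR and DESeq2 called 2 higher against olaparib-treated cells, TIPARP (0.0399 and 0.0395) being gained. Over the alternatives and with any 1 library left out, 2 to 4 rose and 0 to 2 fell with olaparib in SUM1315. Under the same changes 2 to 3 were lower in OlaR than in olaparib-treated SUM1315 cells, and 1 to 2 were higher and 0 to 1 lower in OlaR than in olaparib-treated MDA-MB-468 cells. Against untreated cells 1 to 2 were higher and 2 to 3 lower in OlaR SUM1315 cells. Beside this list and those of hydrolases, cofactors and NAD genes stand the shares of all genes tested: with olaparib 18.9% rose and 17.1% fell in SUM1315, and 12.4% and 9.11% in MDA-MB-468. Of the genes of OlaR against olaparib-treated cells, 21.6% were higher and 25.7% lower in SUM1315, and 23.6% and 27.9% in MDA-MB-468, and against untreated cells the shares were 26% and 28.7%, and 26% and 27.5%. TIPARP, a single-unit enzyme induced by the dioxin receptor, went from 123 ± 33.9 in untreated to 301 ± 40.9 in olaparib-treated and 366 ± 18.8 in OlaR SUM1315 cells, a rise of 1.31 (adjusted p = 1.49e-06) with olaparib. In MDA-MB-468 it fell with olaparib from 91.5 ± 4.46 to 50.8 ± 9.68 at -0.85 (adjusted p = 0.00123), and the olaparib changes of the lines differed by 2.16 (adjusted p = 1.22e-07). ZC3HAV1, the antiviral protein PARP13, rose with olaparib in SUM1315 by 0.53 (adjusted p = 3.56e-06) and was lower in OlaR than in olaparib-treated cells at -1.26 (adjusted p = 2.29e-14), while in MDA-MB-468 it was higher in OlaR cells by 0.46 (adjusted p = 5.14e-07), and the difference between lines was -1.73 (adjusted p = 8.46e-20). PARP8 went from 228 ± 25.9 in untreated to 53.8 ± 17.9 in OlaR SUM1315 cells, at -2.11 (adjusted p = 1.56e-11), and had 0 to 2 reads in the untreated, olaparib and OlaR libraries of MDA-MB-468. TNKS, the other tankyrase, passed in none of the 6 comparisons (adjusted p from 0.418 to 0.882).

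Other hydrolases of ADP-ribose numbered 11, with 10 tested in SUM1315 and 9 in MDA-MB-468. With olaparib 2 rose and 1 fell in SUM1315, and the 1 that passed by limma in MDA-MB-468 fell, where edgeR also called 1 rise. Against olaparib-treated cells, 2 were higher and 3 lower in OlaR SUM1315 and 2 higher and 5 lower in OlaR MDA-MB-468 cells. In OlaR against untreated cells 3 were higher and 3 lower in SUM1315, and 1 was higher (2 by edgeR and by DESeq2) and 5 lower in MDA-MB-468. With other settings or a library left out, 1 to 3 rose and 0 to 1 fell with olaparib in SUM1315, and 0 to 1 rose and 0 to 1 fell with olaparib in MDA-MB-468. Under the same changes 1 to 2 were higher in OlaR than in olaparib-treated SUM1315 cells, and 1 to 2 were higher in OlaR than in olaparib-treated MDA-MB-468 cells. Against untreated cells 2 to 4 were higher and 2 to 4 lower in OlaR SUM1315 cells, and 1 to 2 were higher and 4 to 5 lower in OlaR MDA-MB-468 cells. MACROD1, which removes single units, went from 116 ± 14.1 in untreated to 66.9 ± 17.2 in olaparib-treated and 10.9 ± 2.34 in OlaR SUM1315 cells, at -3.31 (adjusted p = 8.27e-11) for OlaR against untreated. The fall with olaparib (-0.81, adjusted p = 0.0383) was lost without olaparib replicate 2 (0.0780), olaparib replicate 3 (0.174), untreated replicate 1 (0.120) or untreated replicate 3 (0.0826), or with no filter on low values (0.0606). ENPP1, an ectoenzyme that can degrade ADP-ribose, went from 28.1 ± 13.4 to 68.9 ± 8.41 and 127 ± 1.00, at 1.36 (adjusted p = 0.000252) for olaparib and 2.24 (adjusted p = 3.79e-08) for OlaR against untreated cells. ADPRHL1 was lower in OlaR than in untreated MDA-MB-468 cells, at -1.65 (adjusted p = 2.86e-06), and was not tested in SUM1315, where a library of these groups held at most 6 reads.

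Cofactors, readers and ubiquitin ligases of ADP-ribosylation numbered 19, with 18 tested in each line. With olaparib 2 rose and 3 fell in SUM1315, and 3 rose and 3 fell in MDA-MB-468. Against olaparib-treated cells, 4 were higher and 7 lower in OlaR SUM1315 and 6 higher and 4 lower in OlaR MDA-MB-468 cells. In OlaR against untreated cells 5 were higher and 7 lower in SUM1315, and 7 were higher and 3 lower in MDA-MB-468. Across the alternatives and left-out libraries, 1 to 2 rose and 2 to 3 fell with olaparib in SUM1315, and 1 to 3 rose and 0 to 3 fell with olaparib in MDA-MB-468. Under the same changes 2 to 4 were higher and 7 to 8 lower in OlaR than in olaparib-treated SUM1315 cells, and 5 to 6 were higher and 3 to 4 lower in OlaR than in olaparib-treated MDA-MB-468 cells. Against untreated cells 5 to 6 were higher and 7 to 8 lower in OlaR SUM1315 cells, and 6 to 7 were higher and 2 to 4 lower in OlaR MDA-MB-468 cells. HPF1, which directs PARP1 and PARP2 to serine, passed only in OlaR against olaparib-treated MDA-MB-468 cells, at -0.28 (adjusted p = 0.00529), and not without OlaR replicate 1 (0.0577) or olaparib replicate 3 (0.0549), while its olaparib change in that line passed without olaparib replicate 2 at 0.27 (0.0319), against 0.16 with it. XRCC1, a repair scaffold that binds the chains, passed in none of the 6 comparisons (adjusted p from 0.267 to 0.934). CHFR, a ubiquitin ligase that binds the chains, had 23 to 33 reads per untreated and 25 to 44 per olaparib-treated SUM1315 library and 0 in each of the 3 OlaR libraries. Among ligases of the DTX family other than DTX3L, DTX2 was higher in OlaR than in olaparib-treated cells of both lines, by 1.42 (adjusted p = 4.03e-12) in SUM1315 and 0.83 (adjusted p = 2.59e-09) in MDA-MB-468, DTX4 was lower in both (-2.89 and -0.59), and DTX3 was lower in MDA-MB-468 (-1.59). USP25 was lower in OlaR than in olaparib-treated SUM1315 cells at -1.17 (adjusted p = 3.81e-07).

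Of 16 genes that make or use NAD, the substrate of PARP enzymes, 13 were tested in each line. With olaparib 2 rose and 1 fell in SUM1315, and the 2 that passed by limma in MDA-MB-468 fell, where edgeR and DESeq2 each also called 1 rise. Against olaparib-treated cells, 2 were higher and 4 lower (3 by edgeR and by DESeq2) in OlaR SUM1315 and 1 higher (3 by edgeR and by DESeq2) and 4 lower in OlaR MDA-MB-468 cells. In OlaR against untreated cells 4 were higher and 5 lower in SUM1315, and 1 was higher (2 by edgeR and by DESeq2) and 3 lower in MDA-MB-468. In the alternatives and without any 1 library, 2 to 3 rose and 0 to 1 fell with olaparib in SUM1315, and 0 to 1 rose and 1 to 4 fell with olaparib in MDA-MB-468. Under the same changes 3 to 4 were lower in OlaR than in olaparib-treated SUM1315 cells, and 1 to 3 were higher in OlaR than in olaparib-treated MDA-MB-468 cells. Against untreated cells 3 to 4 were higher and 4 to 5 lower in OlaR SUM1315 cells, and 1 to 2 were higher and 3 to 4 lower in OlaR MDA-MB-468 cells. NAMPT, the salvage enzyme that sets the pace of NAD synthesis, was 2577 ± 721 in untreated, 2708 ± 377 in olaparib-treated and 1454 ± 9.52 in OlaR SUM1315 cells, and 286 ± 30.3, 264 ± 28.4 and 595 ± 73.9 in MDA-MB-468. It was lower in OlaR than in olaparib-treated SUM1315 cells (-0.89, adjusted p = 8.17e-07) and higher in MDA-MB-468 (1.17, adjusted p = 2.62e-14), with a difference between lines of -2.05 (adjusted p = 1.71e-13), and neither olaparib change passed (adjusted p = 0.559 and 0.468). SIRT1, which consumes NAD, was lower in OlaR than in olaparib-treated cells of both lines (-0.93 and -0.82). NADK was higher in OlaR than in untreated SUM1315 cells by 1.63 (adjusted p = 5.44e-11), where NNMT (-0.85), SARM1 (-1.49) and NMNAT2 (-1.07) were lower. NADSYN1 was lower in OlaR than in untreated MDA-MB-468 cells, at -0.72 (adjusted p = 0.00388), and higher in SUM1315, by 0.68 (adjusted p = 0.0241), a call lost without OlaR replicate 1 (0.0892), OlaR replicate 3 (0.0540) or untreated replicate 1 (0.114).

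With 2 µM CDDP in parental SUM1315 cells the 3 members that passed the test all rose, where 19.4% of genes rose and 14.5% fell. With 4 µM, 4 rose and 1 fell, beside 22.2% and 21.7%. PARP2 had 252, 235 and 291 at 2 µM and 289.8, 309 and 336 at 4 µM, against 156, 145 and 141 untreated. All treated libraries were above the untreated ones, and the rises were 0.81 (SE 0.14, adjusted p = 3.34e-05) and 1.08 (SE 0.14, adjusted p = 1.89e-07). PARP1 had 1615, 1655 and 1707 and 1888, 1766 and 1804 at the doses, all above the untreated libraries, and rose by 0.53 (SE 0.09, adjusted p = 1.55e-05) and 0.66 (SE 0.09, adjusted p = 2.15e-07). PARP9 rose at both doses, by 0.63 (adjusted p = 0.00678) and 0.56 (adjusted p = 0.0118), the latter lost without 4 µM CDDP replicate 3 (0.0731). At 4 µM TNKS2 rose by 0.56 (adjusted p = 0.00363) and PARP3 fell, at -0.54 (adjusted p = 0.0215), a call lost without 4 µM CDDP replicate 1 (0.0782) or untreated replicate 3 (0.182), with a value of -0.34 without that untreated library. PARP12 did not pass at either dose, but passed at both without untreated replicate 1, at 0.47 and 0.48 (0.0205 and 0.0141) against 0.26 and 0.27 with it. Of the 28 interferon-stimulated genes, the 20 that passed with 4 µM CDDP all rose, beside 22.2% of all genes, as did the 7 of 23 that passed with 2.5 µM in MDA-MB-468, beside 13.3%.

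In MDA-MB-468 the 2 members that passed with 1 µM CDDP in parental cells both rose, where 10.6% of genes rose and 9.41% fell. With 2.5 µM, 2 rose and 1 fell, beside 13.3% and 11.8%. PARP2 had 778, 730.3 and 750.0 and 778, 818 and 832 at the doses against 566, 526 and 556 untreated. No treated library reached down to the untreated ones, and PARP2 rose by 0.45 (SE 0.07, adjusted p = 3.33e-06) and 0.56 (SE 0.07, adjusted p = 2.86e-08). PARP1 rose with 1 µM by 0.22 (adjusted p = 0.0149), lost without 1 µM CDDP replicate 1 (0.141) or untreated replicate 2 (0.0525), and its change with 2.5 µM was 0.16 (adjusted p = 0.0844), which passed in a fit of only these groups (0.0367). PARP3 rose with 2.5 µM by 0.70 (adjusted p = 0.0126), lost without 2.5 µM CDDP replicate 3 (0.124) or untreated replicate 3 (0.0860), and PARG fell at -0.40 (adjusted p = 0.0231), lost without 2.5 µM CDDP replicate 2 (0.101), 2.5 µM CDDP replicate 3 (0.113), untreated replicate 2 (0.0622) or untreated replicate 3 (0.102). With 1 µM, 3 more passed without 1 library: PARP3 without untreated replicate 1 (0.0219), PARP10 without replicate 2 of 1 µM CDDP (0.0133) and PARG without replicate 1 of 1 µM CDDP (0.0470), and edgeR and DESeq2 on recovered reads called all 3 with no library left out, 5 members in all. In a fit of only these groups PARP3 (0.0319) and PARG (0.0324) passed, as did PARP3 with a pseudocount of 5 (0.0497). The change of the higher dose differed between the lines for 6 members, where 27.5% of genes differed. These were PARP1 (0.50, adjusted p = 0.000294), PARP2 (0.52, adjusted p = 0.00685), PARP3 (-1.24, adjusted p = 0.00103), TNKS2 (0.75, adjusted p = 0.00169), PARP9 (0.81, adjusted p = 0.00736) and PARG (0.68, adjusted p = 0.0207). The doses of the lines differ, and the PARG call was lost without SUM1315 4 µM CDDP replicate 2 (0.0677), SUM1315 4 µM CDDP replicate 3 (0.0549), MDA-MB-468 2.5 µM CDDP replicate 2 (0.0529), MDA-MB-468 2.5 µM CDDP replicate 3 (0.0559) or MDA-MB-468 untreated replicate 3 (0.0535).

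CDDP added to olaparib was compared with olaparib alone, and the counts were not tested against those of CDDP alone. In SUM1315 no member did with 2 µM by limma and edgeR, 1 did by DESeq2 (PARP10, 0.0346) and 1 at an unadjusted p under 0.05, where 3.76% of genes changed in either direction. With 4 µM, 1 member, PARP2, rose (0.45, adjusted p = 0.0443), where 8.44% of genes changed, and the call was lost without olaparib replicate 2 (0.345), olaparib + 4 µM CDDP replicate 2 (0.213) or olaparib + 4 µM CDDP replicate 3 (0.102), or with no filter on low values (0.0594), with replicate number as a block (0.0518) or in a fit of only the groups compared (0.0840). Without olaparib replicate 2 the value was 0.26. There PARP4 passed without replicate 1 of olaparib + 4 µM CDDP (0.0336) and by DESeq2 (0.0477). In MDA-MB-468 1 member passed at each dose, PARP2, with 0.29 (adjusted p = 0.00712) at 1 µM, where 5.26% of genes changed, and 0.53 (adjusted p = 7.17e-08) at 2.5 µM, where 23.1% did. Its values were 823, 779 and 834 at 1 µM and 966, 954 and 949.6 at 2.5 µM, the latter above every other MDA-MB-468 library. At 2.5 µM TNKS2 passed without olaparib replicate 1 (0.0443) or olaparib + 2.5 µM CDDP replicate 2 (0.0444).

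When olaparib was added to the higher CDDP dose, 1 member passed in each line. PARP1 was lower with the combination in SUM1315 at -0.27 (adjusted p = 0.0379), where 12.8% of genes changed, and the call was lost without any 1 of the 6 libraries compared (adjusted p = 0.0646 to 0.136) and with no filter (0.0584). PARP2 passed there in a fit of only these groups (0.0333). PARP2 was higher in MDA-MB-468 by 0.24 (adjusted p = 0.0200), where 11.9% of genes changed, lost without 2.5 µM CDDP replicate 1 (0.0916), olaparib + 2.5 µM CDDP replicate 1 (0.0543), olaparib + 2.5 µM CDDP replicate 2 (0.0577) or olaparib + 2.5 µM CDDP replicate 3 (0.0530). PARP12 passed there without olaparib + 2.5 µM CDDP replicate 1 at -0.64 (0.0425), against -0.42 with it.

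In OlaR SUM1315 cells no member passed with 2 µM CDDP by limma, edgeR or DESeq2, 2 did at an unadjusted p under 0.05, and 1.42% of genes changed. With 4 µM, 2 members rose, where 16.7% of genes changed. PARP14 had 462, 454 and 449 with 4 µM CDDP against 389, 349.7 and 349 without. All treated libraries were above the OlaR ones and below every parental library, and the rise was 0.33 (SE 0.10, adjusted p = 0.0213), lost without OlaR replicate 2 (0.0754), OlaR replicate 3 (0.0753) or OlaR + 4 µM CDDP replicate 1 (0.0673). PARP2 rose by 0.41 (adjusted p = 0.0443), lost without any 1 of the 6 libraries compared (adjusted p = 0.0852 to 0.117) and with no filter, a block, edgeR or DESeq2 (0.0521 to 0.0660), while PARP9 passed without OlaR replicate 1 at 0.70 (0.00820), against 0.44 with it. In OlaR MDA-MB-468 cells no member passed with 1 µM CDDP by the 3 tools, 2 did at an unadjusted p under 0.05, and 4.76% of genes changed. PARP2 passed there without replicate 1 of OlaR + 1 µM CDDP (0.0361). With 2.5 µM CDDP PARP2 was the 1 member that rose (0.21, adjusted p = 0.0310), where 18.7% of genes changed, lost without OlaR replicate 1 (0.205), OlaR + 2.5 µM CDDP replicate 1 (0.134) or OlaR + 2.5 µM CDDP replicate 2 (0.186), or in a fit of only the groups compared (0.0641).

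**Figure D5:**
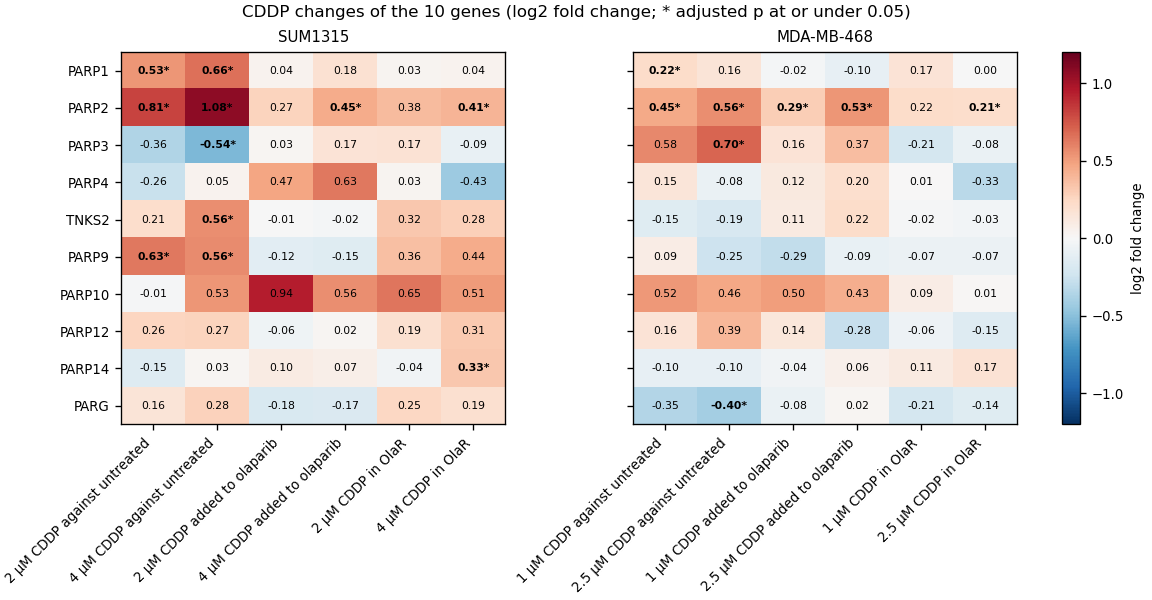
Log2 fold change (colour and printed value) of each of the 10 genes (rows) with CDDP alone, added to olaparib or in OlaR cells (columns), by line; an asterisk marks changes that passed the test. PARP2 passed in every column apart from the lower dose added to olaparib in SUM1315 and the lower dose in OlaR cells of both lines, with its largest value of 1.08 at 4 µM CDDP in SUM1315.

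Whether CDDP acted differently in OlaR and olaparib-treated parental cells was tested as the difference of the changes at the higher dose. In SUM1315 no member differed by limma and edgeR, 1 did by DESeq2 (PARP4, 0.0427) and 2 at an unadjusted p under 0.05, where 6.4% of genes differed. PARP4 passed without olaparib + 4 µM CDDP replicate 1 (0.0215) and PARP9 without OlaR replicate 1 (0.0346). In MDA-MB-468 1 member differed, where 15% of genes did: the CDDP change of PARP2 in OlaR cells was below that in parental cells by a log2 value of -0.32 (SE 0.10, adjusted p = 0.0265), lost without OlaR + 2.5 µM CDDP replicate 3 (0.135), OlaR replicate 2 (0.0717), OlaR replicate 3 (0.0664) or olaparib replicate 1 (0.0587). Between the lines 2 members differed in the olaparib change, where 19.9% of genes differed, 6 in OlaR against olaparib-treated cells (41.7%) and 5 in OlaR against untreated cells (47.4%), by the values given with each member.

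How alike the members moved was described by Pearson correlation over the 18 condition means of log2 values, centred within each line, with no test. Of 11751 genes compared, PARP1 was most like RRP36 (r = 0.937), ASL (0.933) and HSD17B10 (0.924), PARP9 most like SELENOP (0.940), CCAR1 (0.934) and ACAT1 (0.933), and PARP14 most like C11orf57 (0.973), TAX1BP1 (0.972) and CDKN2A (0.970). The likeness of PARP14 to TAX1BP1 and CDKN2A was seen in SUM1315, where r was 0.994 and 0.977, against -0.264 and -0.097 in MDA-MB-468. In SUM1315 CDKN2A had 0 adjusted reads in the 3 OlaR conditions and means of 12.5 to 24.5 in the parental ones, and SELENOP had means of 0 to 12.6, so the SUM1315 r of each rests on few reads. Among the members PARP1 and PARP2 were nearest to each other (r = 0.757, 0.777 in SUM1315 and 0.743 in MDA-MB-468), as were PARP9 and PARG (0.860, 0.955 and 0.581). PARP14 was also nearest to PARG (0.845, 0.926 and 0.405). The share of all genes with a higher r was 2.69% for PARP1, 1.08% for PARP2, 0.706% for PARP9, 0.647% for PARG and 3.24% for PARP14. For PARP12 the highest r was -0.044, with PARP1, from opposite signs in the lines (0.799 in SUM1315 and -0.737 in MDA-MB-468), and 49.5% of genes had a higher one.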

How the data were processed

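The deposited values are a signal that the authors computed with edgeR: reads per gene, adjusted by quantiles within each condition to a common library size. Per the submitters' processing notes, CASAVA 1.8.2, FastQC, STAR, HTSeq and edgeR were used with build hg38, and those notes give no other versions. The adjustment was inverted into whole reads, and running it forward gave back 100% of 1483380 values (tolerance 1e-06, largest relative difference 7.2e-10). Values were log2 transformed with a pseudocount of 1, kept if at least 10 in at least 3 libraries of a line, and fitted with limma 3.58.1 (R 4.3.3) with an intensity trend, each line's 27 libraries together, and all 54 for differences between lines. For olaparib in SUM1315 limma called 4732 genes, and on the recovered reads edgeR 4.0.16 called 4725 and DESeq2 1.42.0 4910. Fitting was tested on simulated data, and the outcome is not given here. Alternatives were no filter, a pseudocount of 5, replicate number as a block, a fit of only the groups compared, a fold change of at least 2 as well, edgeR, DESeq2 and leaving out each library.

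The authors' own comparison tables, which hold log2 fold changes, p-values and false discovery rates of each condition against untreated parental cells, were not used. No column of values was unused (0 not mapped to a sample). The members and lists were chosen with earlier results of these data known. Named from the lists were DTX3L, HPF1, XRCC1, TIPARP, ZC3HAV1, TNKS and NAMPT in any case, and up to 6 others per list with an adjusted p of at most 0.05 and a fold change of at least 2 in an olaparib or OlaR comparison, by smallest adjusted p. A gene that this rule chose is not reported here. For PARP1, PARP9 and PARP14 the 3 most alike genes were named, and for each member its nearest other member.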

Additional observations from a re-analysis of the deposited data

Results flagged for a closer look

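These changes differed between the lines, as SUM1315 minus MDA-MB-468 on the log2 scale, by a test of the difference itself in limma. For olaparib against untreated cells the differences were 0.57 for TNKS2 and 0.73 for PARG. For OlaR against olaparib-treated parental cells they were 1.05 for PARP1, 0.45 for PARP2, -1.24 for PARP4, -0.60 for PARP9, -1.09 for PARP14 and -0.95 for PARG. For OlaR against untreated cells they were 0.98 for PARP1, 0.46 for PARP2, -1.53 for PARP4, -1.01 for PARP10 and -1.08 for PARP14. For the higher CDDP dose they were 0.50 for PARP1, 0.52 for PARP2, -1.24 for PARP3, 0.75 for TNKS2, 0.81 for PARP9 and 0.68 for PARG. Within MDA-MB-468 the change of PARP2 with 2.5 µM CDDP differed between OlaR and olaparib-treated parental cells by -0.32. Some of these calls were lost in an alternative, the fold change of at least 2 aside, or with 1 library left out: TNKS2 and PARG for olaparib, PARP2 and PARP9 for OlaR against olaparib-treated cells, PARP10 for OlaR against untreated cells, PARG for the higher CDDP dose and PARP2 within MDA-MB-468. Without SUM1315 olaparib replicate 2 the 0.45 of PARP2 became 0.26 (adjusted p = 0.129). The -0.60 of PARP9 was not called by edgeR (0.0636), and the -1.01 of PARP10 was not called by edgeR (0.110) or DESeq2 (0.0790) and became -0.51 without SUM1315 OlaR replicate 3 (0.279). These comparisons share libraries, and the doses of the lines differ.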

How the results depend on the processing

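Among changes of a member or named gene that passed in the main fit or in an alternative, none reversed its direction. A change of sign between 2 results that both did not pass was not counted. Of 260 tests of a member, 259 kept their side of the threshold with a pseudocount of 5, 254 with no filter, 246 in a fit of only the groups compared, 252 with edgeR and 248 with DESeq2. Of 1920 such tests with a library left out, 1798 did, 95 lost their call and 27 gained one, and a group left with 2 libraries had fewer to test. Requiring a fold change of at least 2 removes calls by its construction, and the cause of the other changes in count was not tested.

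In SUM1315, with no filter, the number of members past the test became 1 for olaparib, 0 for 4 µM CDDP added to olaparib, 0 for olaparib added to 4 µM CDDP and 1 for 4 µM CDDP in OlaR cells. In SUM1315, with replicate number as a block, the number of members past the test became 0 for 4 µM CDDP added to olaparib and 1 for 4 µM CDDP in OlaR cells. In SUM1315, in a fit of only the groups compared, the number of members past the test became 5 for OlaR against untreated cells, 0 for 4 µM CDDP added to olaparib and 2 for olaparib added to 4 µM CDDP. In SUM1315, in a fit of only the groups compared, the number of genes past the test became 757 for 2 µM CDDP added to olaparib and 2697 for olaparib added to 4 µM CDDP. In MDA-MB-468, in a fit of only the groups compared, the number of members past the test became 4 for 1 µM CDDP and 0 for 2.5 µM CDDP in OlaR cells. In MDA-MB-468, in a fit of only the groups compared, the number of genes past the test became 321 for 1 µM CDDP added to olaparib. In SUM1315, with edgeR, the number of members past the test became 1 for 4 µM CDDP in OlaR cells. In SUM1315, with edgeR, the number of genes past the test became 89 for 2 µM CDDP in OlaR cells. In MDA-MB-468, with edgeR, the number of members past the test became 5 for 1 µM CDDP. In MDA-MB-468, with edgeR, the number of genes past the test became 377 for 1 µM CDDP in OlaR cells. In SUM1315, with DESeq2, the number of members past the test became 1 for 2 µM CDDP added to olaparib, 2 for 4 µM CDDP added to olaparib, 1 for 4 µM CDDP in OlaR cells and 1 for the difference of the CDDP change. In SUM1315, with DESeq2, the number of genes past the test became 789 for 2 µM CDDP added to olaparib. In MDA-MB-468, with DESeq2, the number of members past the test became 5 for 1 µM CDDP. Between the lines, with DESeq2, the number of members past the test became 4 for olaparib. In SUM1315, where a fold change of at least 2 was required as well, the number of members past the test became 0 for olaparib, 2 for OlaR against olaparib-treated cells, 1 for OlaR against untreated cells, 0 for 2 µM CDDP, 1 for 4 µM CDDP, 0 for 4 µM CDDP added to olaparib, 0 for olaparib added to 4 µM CDDP and 0 for 4 µM CDDP in OlaR cells. In SUM1315, where a fold change of at least 2 was required as well, the number of genes past the test became 1228 for olaparib, 2177 for OlaR against olaparib-treated cells, 3027 for OlaR against untreated cells, 1155 for 2 µM CDDP, 2022 for 4 µM CDDP, 65 for 2 µM CDDP added to olaparib, 173 for 4 µM CDDP added to olaparib, 336 for olaparib added to 4 µM CDDP, 70 for 2 µM CDDP in OlaR cells and 502 for 4 µM CDDP in OlaR cells. In MDA-MB-468, where a fold change of at least 2 was required as well, the number of members past the test became 0 for olaparib, 0 for OlaR against olaparib-treated cells, 0 for OlaR against untreated cells, 0 for 1 µM CDDP, 0 for 2.5 µM CDDP, 0 for 1 µM CDDP added to olaparib, 0 for 2.5 µM CDDP added to olaparib, 0 for olaparib added to 2.5 µM CDDP and 0 for 2.5 µM CDDP in OlaR cells. In MDA-MB-468, where a fold change of at least 2 was required as well, the number of genes past the test became 226 for olaparib, 1855 for OlaR against olaparib-treated cells, 1950 for OlaR against untreated cells, 238 for 1 µM CDDP, 337 for 2.5 µM CDDP, 23 for 1 µM CDDP added to olaparib, 249 for 2.5 µM CDDP added to olaparib, 57 for olaparib added to 2.5 µM CDDP, 51 for 1 µM CDDP in OlaR cells and 311 for 2.5 µM CDDP in OlaR cells.

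In SUM1315, with 1 library left out, the number of members ran from 1 to 3 for olaparib, 5 to 8 for OlaR against untreated cells, 0 to 2 for 4 µM CDDP added to olaparib, 0 to 0 for olaparib added to 4 µM CDDP, 0 to 2 for 4 µM CDDP in OlaR cells and 0 to 1 for the difference of the CDDP change. In SUM1315, with 1 library left out, the number of genes ran from 152 to 610 for 2 µM CDDP added to olaparib, 573 to 1144 for 4 µM CDDP added to olaparib, 1066 to 1266 for olaparib added to 4 µM CDDP, 101 to 126 for 2 µM CDDP in OlaR cells and 1386 to 1781 for 4 µM CDDP in OlaR cells. In MDA-MB-468, with 1 library left out, the number of members ran from 2 to 4 for olaparib, 4 to 7 for OlaR against untreated cells, 1 to 3 for 1 µM CDDP, 1 to 3 for 2.5 µM CDDP, 1 to 2 for 2.5 µM CDDP added to olaparib, 0 to 1 for olaparib added to 2.5 µM CDDP, 0 to 1 for 1 µM CDDP in OlaR cells, 0 to 1 for 2.5 µM CDDP in OlaR cells and 0 to 1 for the difference of the CDDP change. In MDA-MB-468, with 1 library left out, the number of genes ran from 453 to 690 for 1 µM CDDP added to olaparib, 1022 to 1431 for olaparib added to 2.5 µM CDDP and 289 to 485 for 1 µM CDDP in OlaR cells. Between the lines, with 1 library left out, the number of members ran from 0 to 3 for olaparib.

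With the replicate number as a block 258 of the 260 tests kept their side of the threshold, and the 2 calls lost were PARP2 with 4 µM CDDP added to olaparib (adjusted p = 0.0518) and in OlaR SUM1315 cells (0.0521). Libraries with the same number in different conditions were not alike: correlations of their deviations from the condition means, over genes, had means of -0.008 to 0.002 and ran from -0.098 to 0.163.

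OlaR libraries held fewer reads than parental ones, and PARP10 had as few as 4 reads in a SUM1315 library, the lowest of the members. Each value rests on 3 libraries, and the OlaR cells of a line on 1 culture.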

Other observations

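PARP2 was most like MCM10 (r = 0.928), CHEK1 (0.922) and ZNF684 (0.913) over the 18 condition means, and PARG most like RARRES3 (0.937), C16orf72 (0.936) and TAB2 (0.932). These genes were chosen after their values were seen, and the correlations are a description with no test. The nearest member to TNKS2 was PARP2 (0.619, 0.786 in SUM1315 and 0.365 in MDA-MB-468). To PARP4 it was PARP14 (0.645) and to PARP10 also PARP14 (0.564), with r of 0.828 and 0.664 in SUM1315 and opposite signs in MDA-MB-468 (-0.398 and -0.334). To PARP3 it was PARP9 (0.452). The share of genes with a higher r was 1.81% for TNKS2, 6.69% for PARP4, 3.81% for PARP10 and 19.8% for PARP3.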
